A study of Mus musculus with 6 samples.

Results

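The members described here are 10 mouse genes of the signalling route from interleukin-6 (IL-6) family and interleukin-1 receptors to STAT3 and the C/EBP transcription factors, namely Il6ra, Osmr, Lifr, Il6st, Il1r1, Jak2, Stat3, Socs3, Cebpb and Cebpd. They were chosen by gene symbol, and all 10 were found among the 28880 genes of the liver RNA-seq table and were among the 16717 genes that passed the filter on low counts. Total RNA came from the livers of 6 mice, 3 of them acute ethanol-exposed and 3 controls, with 1 library per mouse, all male wild type C57BL/6J aged 6 to 8 weeks. The ethanol-exposed mice went without food for 12 h, were given ethanol once by mouth (6 g/kg, as a 50% solution) and gave their livers 24 h later. Control mice received no ethanol, and whether they were fasted is not given in the sources used here, so ethanol and fasting cannot be told apart in any comparison below. All 6 libraries carry the same batch label.

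Cytokines of the IL-6 family bind a ligand-specific receptor chain, which joins the shared chain gp130, the product of Il6st. Janus kinases held by gp130 phosphorylate STAT3, which moves to the nucleus and turns on genes such as Socs3, whose product feeds back on the receptor. In hepatocytes this route, together with IL-1 signalling and the C/EBP factors, drives the acute-phase response, the switch of the liver to making defence proteins for the blood.

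Of the 10 members, 7 were upregulated in acute ethanol-exposed mice and 0 were downregulated. The largest rises were those of Il1r1, the signalling receptor for IL-1 (30.6-fold), Socs3, the feedback inhibitor of the route (24.3-fold), and the transcription factors Cebpd (16.8-fold) and Cebpb (9.83-fold). Stat3 rose 4.08-fold, and the ligand-binding chains Il6ra and Osmr rose 2.69-fold and 2.68-fold. Upregulated here means an adjusted p under 0.05 in edgeR's quasi-likelihood test with a log2 fold change above 1. Of all tested genes, 10.4% were upregulated and 13.8% downregulated under the same rule. The members had a median log2 fold change of 1.73, against -0.04 over all tested genes.

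Libraries held 60514417 to 74210869 counts. TMM factors, which correct for the share of counts taken by few genes, were 0.768 to 0.836 in ethanol-exposed and 1.26 to 1.27 in control libraries. With library size alone in their place, the median of all genes moved to -0.71 and 846 genes were upregulated and 5385 downregulated, against 1738 and 2301 with TMM. Hepatocyte markers such as Alb were abundant in all 6 libraries, at a sum of 126339 to 128690 CPM (counts scaled to library size and TMM factor) in ethanol-exposed mice and 66495 to 77119 CPM in control mice, and 2 of the 6 markers were upregulated. The sums overlapped with library size alone, at 96937 to 106272 and 83726 to 97536 CPM. Of the 6 Kupffer cell markers none was called, but their sum was lower in ethanol-exposed mice, at 66.9 to 90.4 CPM against 91.4 to 96.2 CPM. With library size alone it was 54.8 to 70.3 against 116 to 121 CPM. Among monocyte, endothelial, stellate, T cell, B cell and cholangiocyte markers Plac8, Lyve1 and Sox9 rose and Ccr2, Kdr, Col1a1, Cd4 and Ms4a1 fell, with Ccr2 at 0 counts in all 3 ethanol-exposed and 37, 45 and 56 counts in control libraries, and their part in the members' values was not tested. Ethanol replicate 3 stood apart in acute-phase genes, with serum amyloid A gene Saa2 at 4672 CPM against 45.8 and 4.81 CPM in ethanol replicates 1 and 2, and printed fold changes of called genes that moved by over 1.5 times without this library are also given without it. In bulk liver, fewer cells of a type and less RNA per cell cannot be told apart.

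**Figure D1:**
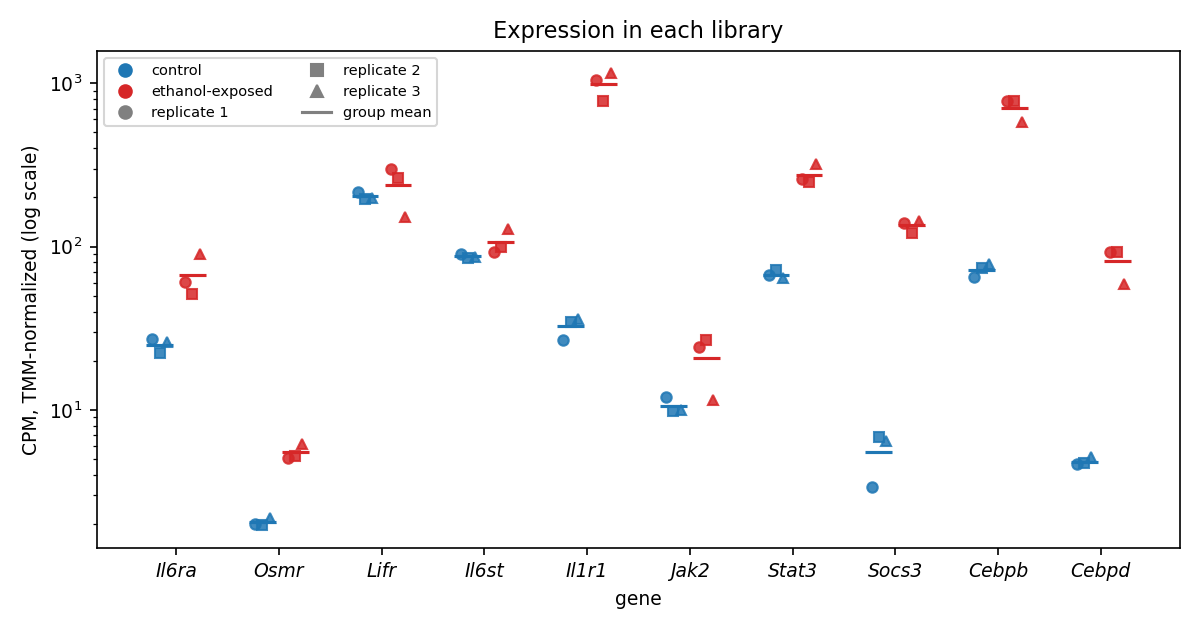
Expression of the 10 genes in every library, as TMM-normalized CPM on a log axis, with control mice in blue, ethanol-exposed mice in red, a marker shape for each replicate number and a line at each group mean. Il1r1, Stat3, Socs3, Cebpb and Cebpd form groups far apart. The ethanol-exposed libraries of Lifr lie on both sides of the control libraries, and those of Jak2 reach down into the control range.

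To show the DNA upstream of the most strongly changed members, the promoter sequence is printed for those 4 with the largest log2 fold change that have a RefSeq entry (build GRCm38.p6). RefSeq promoter entries were matched by symbol for 9 of the 10 members, giving 11 entries, and Cebpd had no entry. Each run below reads 5′ to 3′ on the strand of the gene and ends at the base before the annotated start, except that of Socs3, which holds the first 165 of these bases. Il1r1 lies at chr1:40224830-40225079 on the plus strand, Cebpb at chr2:167688665-167688914 on the plus strand, Stat3 at chr11:100939541-100939790 on the minus strand and Socs3 at chr11:117969452-117969616 on the minus strand. Capitals mark matches to the STAT motif TTCNNNGAA or the C/EBP core motif TTGCNNAA, searched on both strands.
Il1r1: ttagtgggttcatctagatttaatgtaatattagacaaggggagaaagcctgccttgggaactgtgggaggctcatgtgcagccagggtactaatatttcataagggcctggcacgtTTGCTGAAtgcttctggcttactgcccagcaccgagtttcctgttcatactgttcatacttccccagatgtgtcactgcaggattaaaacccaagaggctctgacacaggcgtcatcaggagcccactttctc
Cebpb: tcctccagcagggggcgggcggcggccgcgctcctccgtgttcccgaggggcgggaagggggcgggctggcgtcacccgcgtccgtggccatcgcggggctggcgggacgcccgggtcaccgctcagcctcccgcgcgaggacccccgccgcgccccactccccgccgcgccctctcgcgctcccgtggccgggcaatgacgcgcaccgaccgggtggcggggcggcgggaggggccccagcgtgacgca
Stat3: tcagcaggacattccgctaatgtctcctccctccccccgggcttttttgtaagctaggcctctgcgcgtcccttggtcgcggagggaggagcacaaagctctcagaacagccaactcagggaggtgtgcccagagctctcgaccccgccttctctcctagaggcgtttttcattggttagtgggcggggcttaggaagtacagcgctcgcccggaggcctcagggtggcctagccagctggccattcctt
Socs3: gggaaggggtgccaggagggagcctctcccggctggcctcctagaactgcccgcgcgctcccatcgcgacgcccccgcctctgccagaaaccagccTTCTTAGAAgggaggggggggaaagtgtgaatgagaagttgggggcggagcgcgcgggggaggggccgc
In the 250 bases before the start, the STAT motif was found in 1 of the 11 entries, that of Socs3, as TTCTTAGAA with its first base 154 bases before the start. The C/EBP core was found in 1 of the 11, the first start of Il1r1, as TTGCTGAA at 133 bases before it. The matches did not overlap each other, being in different promoters. Of 32851 mouse promoters of the same length, 7.02% held the STAT motif and 9.56% the C/EBP core. A match describes letters in this window and not a bound site.

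The receptor chains were compared first, to ask at which receptors of the family transcript levels differed. Il6ra (chr3:89771366-89820503), which encodes the chain that binds IL-6, stood at 60.6, 51.6 and 90.2 CPM in ethanol replicates 1, 2 and 3 and at 27.1, 22.2 and 25.9 CPM in control replicates 1, 2 and 3. The groups did not overlap, and the highest level was in ethanol replicate 3, at 1.61 times the mean of the other ethanol-exposed libraries. The log2 fold change was 1.43 ± 0.21 (SE, n = 3 and 3), with an adjusted p of 0.00223 in edgeR's quasi-likelihood test. The antisense gene model Gm42809 overlaps Il6ra on the opposite strand, with 670, 1010 and 89 counts in ethanol-exposed and 4, 0 and 0 in control libraries. The sources used here do not say if reads were counted by strand, so reads of the overlap cannot be assigned with certainty.

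Osmr (chr15:6843058-6904450) encodes the chain that joins gp130 in the receptor for oncostatin M. It was the lowest of the members, at 5.09, 5.25 and 6.18 CPM in ethanol-exposed and 2.01, 1.97 and 2.19 CPM in control libraries, and again the groups did not overlap. The log2 fold change of 1.42 ± 0.19 passed edgeR's test with an adjusted p of 0.00139. Both Il6ra and Osmr lay far down the 1738 upregulated genes, at ranks 1148 and 1159 by log2 fold change. With library size alone both kept an adjusted p under the threshold in edgeR (0.0139 and 0.0126) but fell short on the fold, at a log2 fold change of 0.75 each. Relative to the median of all genes under that scaling, both stood at 1.46.

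Lifr (chr15:7120095-7226970), which encodes the receptor chain for leukaemia inhibitory factor, was measured at 300.0, 264 and 151 CPM in ethanol-exposed mice and at 216, 196 and 199 CPM in control mice. Ethanol replicates 1 and 2 were above every control library and ethanol replicate 3 was below every one. Its log2 fold change was 0.23 ± 0.24, with an adjusted p of 0.472 in edgeR, and without ethanol replicate 3 it was 0.48 with an adjusted p of 0.00310, below the fold threshold.

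Il6st (chr13:112600604-112646620), the gene of the shared chain gp130, stood at 93.0, 99.0 and 128 CPM in ethanol-exposed and 90.5, 85.3 and 86.1 CPM in control mice. The groups were separated by a narrow gap, and the log2 fold change of 0.29 ± 0.14 did not pass edgeR's test, with an adjusted p of 0.129. The sign of the difference depended on the scaling for both Il6st and Lifr. In deposited FPKM (fragments per unit of transcript length and of sequencing depth), which carries no TMM correction, Il6st was 6.07, 6.96 and 8.27 in ethanol-exposed and 9.65, 9.05 and 9.13 in control libraries, lower in all 3 ethanol-exposed mice. With library size alone the lower level of Il6st passed the adjusted p in edgeR, at a log2 fold change of -0.38 and an adjusted p of 0.0431, and in limma on log2(FPKM + 1) it was -0.35 with an adjusted p of 0.0337. Relative to the median of all genes with library size alone, Il6st stood at 0.33. In limma on log2(FPKM + 1) it stood at 0.078 relative to that fit's median, and with a filter at a mean FPKM of at least 5 at 0.0098.

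Levels of a pair of genes inside 1 library can be compared as a ratio of FPKM, which no scaling of libraries can change. Such ratios were formed for 9 pairs chosen after the values were seen. With 3 against 3 mice the two-sided exact permutation test cannot give a p below 0.1. After adjustment over the 9 ratios the lowest p of this test was 0.129. The ratio of Il6ra to Il6st was 0.837, 0.669 and 0.905 in ethanol-exposed and 0.385, 0.334 and 0.386 in control mice, with no overlap (exact permutation p = 0.1). Osmr to Il6st averaged 0.0473 ± 0.0031 (SD, n = 3) against 0.0215 ± 0.0014 (SD, n = 3), also with no overlap (exact permutation p = 0.1). Relative to the shared chain, transcripts of the IL-6 and oncostatin M chains were therefore about 2.18 and 2.21 times as abundant in ethanol-exposed mice. Lifr to Il6st was 3.32, 2.75 and 1.21 against 2.46, 2.37 and 2.39, with the ethanol-exposed libraries on both sides of the control libraries (exact permutation p = 1).

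Il1r1 (chr1:40264240-40356417) was the member with the largest rise. It stood at 1049, 780 and 1149 CPM in ethanol-exposed mice and at 26.9, 34.5 and 36.0 CPM in control mice. Every ethanol-exposed library was more than an order of magnitude above every control library. The log2 fold change was 4.93 ± 0.22, with an adjusted p of 5.53e-05 in edgeR's quasi-likelihood test, rank 16 by p among the genes tested and rank 104 by log2 fold change among the upregulated genes. Per transcript length, Il1r1 moved from rank 4203 to rank 355 among all genes by mean FPKM. A short gene model on the same strand, Gm38070, overlaps it and held 41 to 116 counts in ethanol-exposed and 32 to 86 in control libraries, beside 47674 to 62724 and 2522 to 2967 counts of Il1r1.

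The partner chain of this receptor was not called. Il1rap, the accessory protein needed for IL-1 signalling, stood at 144, 154 and 116 CPM in ethanol-exposed and 137, 114 and 116 CPM in control mice, with a log2 fold change of 0.18 and an adjusted p of 0.338 in edgeR. In FPKM the ratio of Il1r1 to Il1rap was 12.99, 9.04 and 17.7 in ethanol-exposed and 0.351, 0.542 and 0.553 in control libraries (exact permutation p = 0.1). Il1r1 transcripts were thus below those of Il1rap in all control mice and above them in all ethanol-exposed mice.

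In the IL-1 branch around the receptor, 11 genes of ligands, receptor chains and adaptors were tested. Of all tested genes 10.4% rose and 13.8% fell, and of these 11, 2 rose and 0 fell. One was Il1r2, the decoy receptor that binds IL-1 without signalling, with 32, 61 and 69 counts in ethanol-exposed libraries and 0 in every control library, at least 26.1-fold higher when each control library is set at 3 counts. The other was Traf6, a ubiquitin ligase downstream of the receptor, with a log2 fold change of 1.09 and an adjusted p of 0.00149 in edgeR. Without ethanol replicate 3, Traf6 was not called and 1 gene of the branch rose. With library size alone, 1 rose and 1, Irak4, fell. In both limma fits 0 rose, and with log2(FPKM + 0.1) Irak4 fell. So few calls do not set the branch apart from all tested genes. The ligand genes Il1a and Il1b had log2 fold changes of 0.32 and -0.71, with adjusted p of 0.327 and 0.338 in edgeR. Neutrophil markers, which mark a cell type known to carry Il1r2, summed to 1.77 to 10.8 CPM in ethanol-exposed and 0.262 to 0.401 CPM in control mice, and 3 of the 6 were tested and all 3 rose. The defining marker Ly6g had 0, 0 and 9 counts in ethanol-exposed and 0 in control libraries, and Mpo and Elane had 0 counts in every ethanol-exposed library. Their part in the result for Il1r2 was not tested.

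The kinase and the transcription factor behind the receptors followed. Jak2 (chr19:29229228-29290480), a Janus kinase bound to gp130, stood at 24.4, 26.9 and 11.5 CPM in ethanol-exposed and at 12.1, 9.87 and 9.99 CPM in control mice. Ethanol replicates 1 and 2 were above all control libraries, and ethanol replicate 3, at 0.451 times the mean of the other ethanol-exposed libraries, lay within the control range. The log2 fold change of 0.98 ± 0.30 had an adjusted p of 0.0352 in edgeR and fell just short of the fold threshold. With a threshold on the adjusted p alone, Jak2 would be the eighth member counted as higher, beside 21.5% of all tested genes. The value for Jak2 turned on single libraries and on the scaling. Without ethanol replicate 3 the log2 fold change was 1.28 with an adjusted p of 0.000108, past both thresholds, and without any 1 of the other 5 libraries the adjusted p in edgeR was 0.0773 to 0.114. With library size alone the log2 fold change was 0.32 with an adjusted p of 0.421 in edgeR, and 1.03 relative to the median of all genes. In limma on log2(FPKM + 1) it was 0.18 with an adjusted p of 0.538, and 0.61 relative to the median of all genes.

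Stat3 (chr11:100775924-100830366), the transcription factor activated by gp130, was measured at 259, 247 and 319 CPM in ethanol-exposed and 66.7, 71.6 and 64.0 CPM in control mice. The groups were far apart. Its log2 fold change was 2.03 ± 0.13, the smallest standard error of the 10, with an adjusted p of 0.000121 in edgeR. Stat5a overlaps Stat3 on the opposite strand and went the other way, with 534 to 639 counts in ethanol-exposed and 907 to 1391 in control libraries.

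No other tested kinase or STAT gene of the list was called higher. Of 8 such genes, 7 were tested. Stat4, the gene left out by the filter, had 6, 26 and 3 counts in ethanol-exposed and 0 in every control library. It was called higher with no filter on low counts. Of the 7 tested, 0 rose and 1 fell, beside 10.4% and 13.8% of all tested genes. So few calls do not set the list apart from all tested genes. The median log2 fold change was -0.31, or -0.48 to -0.18 with 1 library left out. A total of 3 fell with library size alone, Stat5a and Stat6 being the others. The gene that fell was Tyk2, a Janus kinase, at 7.46, 7.75 and 6.16 CPM in ethanol-exposed and 21.1, 18.7 and 19.8 CPM in control mice, with a log2 fold change of -1.48 and an adjusted p of 0.000374 in edgeR. Jak1, the other main kinase of gp130, had a log2 fold change of 0.65 with an adjusted p of 0.00148 in edgeR, below the fold threshold, and Jak2 to Jak1 overlapped between groups (exact permutation p = 0.6).

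Socs3 (chr11:117856905-117860873), whose product binds gp130 and Janus kinases and damps STAT3 activation, was 140, 122 and 143 CPM in ethanol-exposed and 3.39, 6.84 and 6.46 CPM in control mice. The ethanol-exposed mice were close together, with the highest at 1.17 times the lowest, and the widest spread was in the control mice, at 2.02 times. In edgeR the log2 fold change was 4.60 ± 0.29 with an adjusted p of 9.88e-05. This was a larger fold than that of Stat3, and in FPKM its ratio to Stat3 was 1.79, 1.62 and 1.47 in ethanol-exposed and 0.167, 0.314 and 0.332 in control mice (exact permutation p = 0.1).

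Among 15 other negative regulators of the route, all of them tested, 5 rose and 4 fell, with a median log2 fold change of 0.58. The rises included Socs2, an inhibitor of growth hormone signalling, at 57.3, 29.8 and 64.2 CPM in ethanol-exposed and 2.11, 1.15 and 1.87 CPM in control mice, with a log2 fold change of 4.87 and an adjusted p of 0.000198 in edgeR. Cish, of the same family, rose by 3.37 on the log2 scale, or 2.75 without ethanol replicate 3, and the phosphatase gene Ptpn2 and Socs7 rose by 1.91 and 1.82. The fifth rise was that of Ptpn1, another phosphatase gene, by 1.02 on the log2 scale, just past the threshold, and it was not called without control replicate 1. Pias3, which encodes a protein inhibitor of activated STAT3, fell by 2.30 on the log2 scale with an adjusted p of 0.00113 in edgeR. With all libraries the SOCS family therefore moved in both directions, since Socs4 and Socs5 also fell. The fourth fall was that of the phosphatase gene Ptpn6, by 1.22 on the log2 scale. Without ethanol replicate 2 or without control replicate 3 neither Socs4 nor Socs5 was called, which left 2 falls. Socs4 was also lost without ethanol replicate 1, and Socs5 without control replicate 1 or without control replicate 2.

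The C/EBP factors were compared to ask whether the family moved together. Cebpb (chr2:167530835-167532338), which encodes C/EBPβ, a factor first known for binding the IL-6 gene and acute-phase genes, was 775, 773 and 577 CPM in ethanol-exposed and 65.0, 73.7 and 77.7 CPM in control mice. Every ethanol-exposed library was above every control library, and ethanol replicate 3 was the lowest of its group. edgeR gave a log2 fold change of 3.30 ± 0.16 with an adjusted p of 6.40e-05. Cebpb was the most abundant member per length in both groups, at 350 ± 66 FPKM (SD, n = 3) in ethanol-exposed and 56.5 ± 4.9 FPKM (SD, n = 3) in control mice. Peds1 overlaps it on the opposite strand, with 2549, 2462 and 3443 counts in ethanol-exposed and 831, 665 and 639 in control libraries, against 31507 to 47300 and 5612 to 6399 counts of Cebpb.

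Cebpd (chr16:15705150-15708895), which encodes C/EBPδ, a factor that is low in resting liver and induced in the acute phase, was 92.0, 92.3 and 59.1 CPM in ethanol-exposed and 4.63, 4.72 and 5.14 CPM in control mice. Its pattern was like that of Cebpb, with ethanol replicates 1 and 2 alike and ethanol replicate 3 lower, at 0.642 times their mean. Its log2 fold change of 4.07 ± 0.21 had an adjusted p of 6.79e-05 in edgeR. Spidr, on the opposite strand, overlaps Cebpd and had 52 to 100 counts in ethanol-exposed and 265 to 329 in control libraries.

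None of the other C/EBP genes was called higher. Of 5, 0 rose and 1 fell, beside 10.4% and 13.8% of all tested genes, with a median log2 fold change of -0.31. So few genes do not set the rest of the family apart from all tested genes. Without ethanol replicate 3, 2 fell, the second being Cebpe, at -1.14 with an adjusted p of 0.00444 in edgeR, against -1.65 with an adjusted p of 0.0846 with all libraries. Cebpa, the main C/EBP factor of the resting hepatocyte, stood at 290, 305 and 149 CPM in ethanol-exposed and 242, 223 and 213 CPM in control mice, with a log2 fold change of 0.14 and an adjusted p of 0.688 in edgeR. Cebpg, which encodes a family member without a classical activation domain, fell by 1.29 on the log2 scale, with an adjusted p of 0.00142 in edgeR. In FPKM, Cebpb to Cebpa was 4.68, 4.45 and 6.77 in ethanol-exposed and 0.472, 0.580 and 0.640 in control mice (exact permutation p = 0.1). Cebpd to Cebpa was 0.223, 0.213 and 0.278 against 0.0135, 0.0149 and 0.0170 (exact permutation p = 0.1). Cebpb transcripts were thus fewer than those of Cebpa in all control mice and more in all ethanol-exposed mice, while Cebpd stayed below Cebpa in all 6. Cebpb to Cebpd went from 37.2 ± 2.0 to 22.1 ± 2.0 (SD, n = 3 each), with no overlap (exact permutation p = 0.1).

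**Figure D2:**
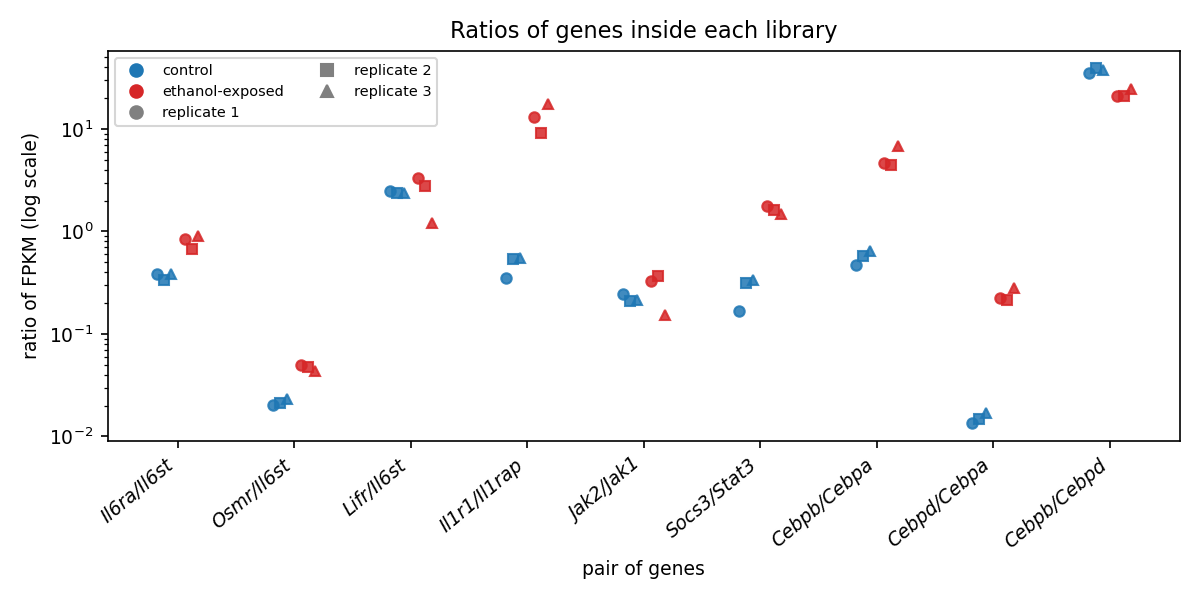
Ratios of FPKM for 9 pairs of genes in each library, on a log axis, with control mice in blue and ethanol-exposed mice in red and a marker shape for each replicate number. The groups are separate for 7 pairs, and Lifr to Il6st and Jak2 to Jak1 overlap because ethanol replicate 3 lies on the other side of the control libraries.

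Order of the members by mean FPKM, a level per transcript length, differed between groups. In control mice the order was Cebpb, Lifr (22.3), Il6st (9.28), Stat3 (8.34), Il1r1 (6.02), Il6ra (3.42), Jak2 (2.49), Socs3 (2.26), Cebpd (1.52) and Osmr (0.199). Socs3 overlapped in its libraries with both its neighbours, Jak2 and Cebpd, and the other neighbours were separate. In ethanol-exposed mice the order was Cebpb, Il1r1 (115), Socs3 (34.4), Stat3 (21.3), Lifr (16.4), Cebpd (16.1), Il6st (7.10), Il6ra (5.74), Jak2 (3.11) and Osmr (0.334). Here Lifr overlapped with Stat3 and with Cebpd, and Il6st with Il6ra. The receptor gene Il1r1 moved from the fifth to the second place, and Lifr from the second to the fifth.

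The spread between ethanol-exposed mice sorted the members into unlike patterns. Ethanol replicate 3 was the highest of its group for Il6ra, Osmr, Il6st, Il1r1, Stat3 and Socs3, and the lowest for Lifr, Jak2, Cebpb and Cebpd. The ratio of the highest to the lowest ethanol-exposed library ran from 1.17 for Socs3 to 2.33 for Jak2, with a median of 1.43, against a median of 1.52 over all tested genes. In control mice it ran from 1.06 for Il6st to 2.02 for Socs3, with a median of 1.16 against 1.24 over all tested genes. All 7 upregulated members were called in each of the 6 fits that left out 1 library. In 8 of the 10 members, these 7 and Il6st, every ethanol-exposed library was above every control library, which was true of 28% of all tested genes.

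**Figure D3:**
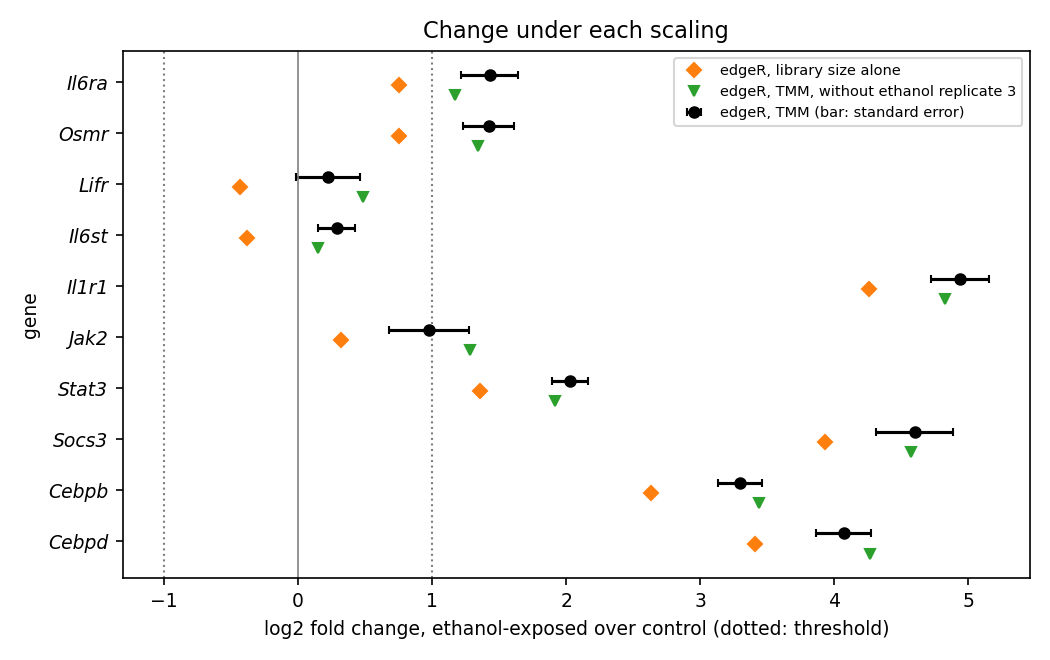
Log2 fold change of each gene in edgeR with TMM scaling (black, bars are standard errors), with library size alone (orange) and with TMM but without ethanol replicate 3 (green), with dotted lines at the fold threshold. Lifr and Il6st change sign with library size alone, at -0.44 and -0.38, Jak2 passes the threshold without ethanol replicate 3, and Il6ra and Osmr fall below it with library size alone.

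Genes with the most similar levels over the 6 libraries were sought for each member, by Pearson correlation of log2(CPM + 1) among genes with a mean of at least 5 CPM. These values describe 6 libraries in 2 groups and carry no p, since any gene with the same group difference scores high. For Stat3 the nearest were Grn, Tanc1 and Cd302, for Socs3 Slc25a39, Ptpn1 and Pla2g12a, for Il1r1 Slc36a4, F12 and Pla2g12a, and for Jak2 Retreg2, Nmrk1 and Cxadr. Cxadr had the lowest level of its ethanol-exposed group at 97.5 CPM and the highest at 382 CPM, beside 88.9 to 109 CPM in control mice, the same split as in Jak2.

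Upstream of the receptors, most ligand genes of the IL-6 family did not pass the filter on low counts. Of 12 IL-6 family ligand genes, 11 were in the table and 5 passed the filter. Of these 5, 1 rose and 0 fell, beside 10.4% and 13.8% of all tested genes. Il6 itself had 0 counts in all 3 ethanol-exposed libraries and 26, 0 and 0 in control libraries, and Osm, the ligand of Osmr, had 4, 0 and 9 against 4, 0 and 0. At this depth a difference in Il6 or Osm transcripts was not detectable, and protein arriving with the blood is not measured by liver RNA. The ligand gene that rose was Clcf1, a partner in a ligand of the ciliary neurotrophic factor receptor, at 9.19, 7.29 and 2.53 CPM in ethanol-exposed and 1.05, 0.932 and 0.947 CPM in control mice, with a log2 fold change of 2.69 and an adjusted p of 0.00377 in edgeR. Cntfr, the gene of that receptor's binding chain, was also upregulated, by 1.41 on the log2 scale with an adjusted p of 0.0195 in edgeR, and was not called without control replicate 1 or without control replicate 2. Il27ra, the receptor chain for interleukin-27, fell by 1.56 on the log2 scale (adjusted p of 0.0409 in edgeR) from 48 to 83 counts per control library, a call that held without ethanol replicate 3 and was lost without any 1 of the other 5 libraries. These were 2 of the 4 other receptor genes, 3 of which were tested.

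Downstream, 8 early STAT3 target genes were tested, of which 6 rose and 1 fell, with a median log2 fold change of 1.52. With library size alone, and in both limma fits, 2 rose and 2 fell, as Fos, Bcl3, Mcl1 and Pim1 were no longer called and Ccnd1 was called lower. Junb, a subunit of the AP-1 transcription factor, was 245, 316 and 177 CPM in ethanol-exposed and 14.0, 19.96 and 23.4 CPM in control mice, with a log2 fold change of 3.68 and an adjusted p of 0.000198 in edgeR. Myc, a growth regulator, was 48.4, 54.9 and 6.98 CPM against 2.81, 3.49 and 3.34 CPM, with a log2 fold change of 3.52 and an adjusted p of 0.00654 in edgeR. Ethanol replicate 3 was the lowest of its group for both genes, as for Jak2, Cebpb and Cebpd. Fos, Bcl3 and Mcl1 rose by 2.52, 1.69 and 1.34 on the log2 scale, with Bcl3 at 1.06 without ethanol replicate 3. Fos was 11.9, 33.0 and 4.21 CPM in ethanol-exposed and 0.778, 4.21 and 3.58 CPM in control mice, and without ethanol replicate 2 its log2 fold change was 1.496. Fos and Bcl3 were both lost without any 1 of the control libraries, which left 4 rises, and Fos was also lost without ethanol replicate 1 or without ethanol replicate 2. The gene that fell was Bcl6, a transcriptional repressor, by 1.06 on the log2 scale, and it was not called without control replicate 1 or without ethanol replicate 3.

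Of 20 acute-phase genes known as targets of IL-6 or IL-1, all tested, 13 rose and 0 fell, with a median log2 fold change of 2.10, or 1.25 without ethanol replicate 3. Hamp, which encodes the iron hormone hepcidin, was 1726, 1550 and 1288 CPM in ethanol-exposed and 50.7, 70.5 and 58.8 CPM in control mice, with a log2 fold change of 4.66 and an adjusted p of 4.51e-05 in edgeR. Its 3 ethanol-exposed libraries were alike, as were those of Socs3. Lcn2, which encodes the iron-siderophore binding protein lipocalin-2, was 49.7, 36.4 and 2650 CPM against 2.70, 6.59 and 7.87 CPM, and the metalloreductase gene Steap4 was 154, 123 and 1911 CPM against 51.0, 52.7 and 50.4 CPM. Both rose, and in both the mean rests on ethanol replicate 3, although ethanol replicates 1 and 2 were also above every control library. Without ethanol replicate 3 the log2 fold change was 2.92 for Lcn2 and 1.44 for Steap4, against 7.32 and 3.83 with it. Lrg1 and Hp, the gene of haptoglobin, rose by 3.14 and 2.43 on the log2 scale and had their highest level in ethanol replicate 3 too, and without it they stood at 2.32 and 1.36. Lcn2, Steap4 and Hp were not called when any 1 of the control libraries was left out, and DESeq2 called neither Lcn2 nor Steap4.

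Saa1 and Saa2, serum amyloid A genes named here after their values were seen, differed widely between the ethanol-exposed mice. Saa1 was 100.01, 20.3 and 4971 CPM in ethanol-exposed and 15.3, 66.9 and 61.0 CPM in control mice, and its log2 fold change of 5.15 ± 1.92 had an adjusted p of 0.0656 in edgeR. Saa2 had a log2 fold change of 7.09 ± 2.43 and an adjusted p of 0.0502 in edgeR. Without ethanol replicate 3 these were 0.34 for Saa1 and 1.14 for Saa2, with adjusted p of 0.723 and 0.334 in edgeR. Saa1 and Saa2 are near-identical copies, so reads could be split between them. Another gene of the family, Saa3, was among the 13 rises, at 5.86, 2.35 and 11.5 CPM in ethanol-exposed and 1.43, 1.23 and 1.28 CPM in control mice, with a log2 fold change of 2.32 and an adjusted p of 0.0117 in edgeR. It stood at 1.65 without ethanol replicate 3, and was not called without control replicate 2 or without control replicate 3. In ethanol replicate 3, the 10 members were not raised in the same way, with Stat3 at 1.26 times, Socs3 at 1.09 times and Cebpd at 0.642 times the mean of ethanol replicates 1 and 2. Neutrophil markers were also highest in ethanol replicate 3, at a sum of 10.8 CPM, and their part in the acute-phase values was not tested. Without ethanol replicate 3, 11 of the 20 acute-phase genes rose and 1, Apcs, fell. Without any 1 of the 3 control libraries 7 rose, and A2m fell without control replicate 1.

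**Figure D4:**
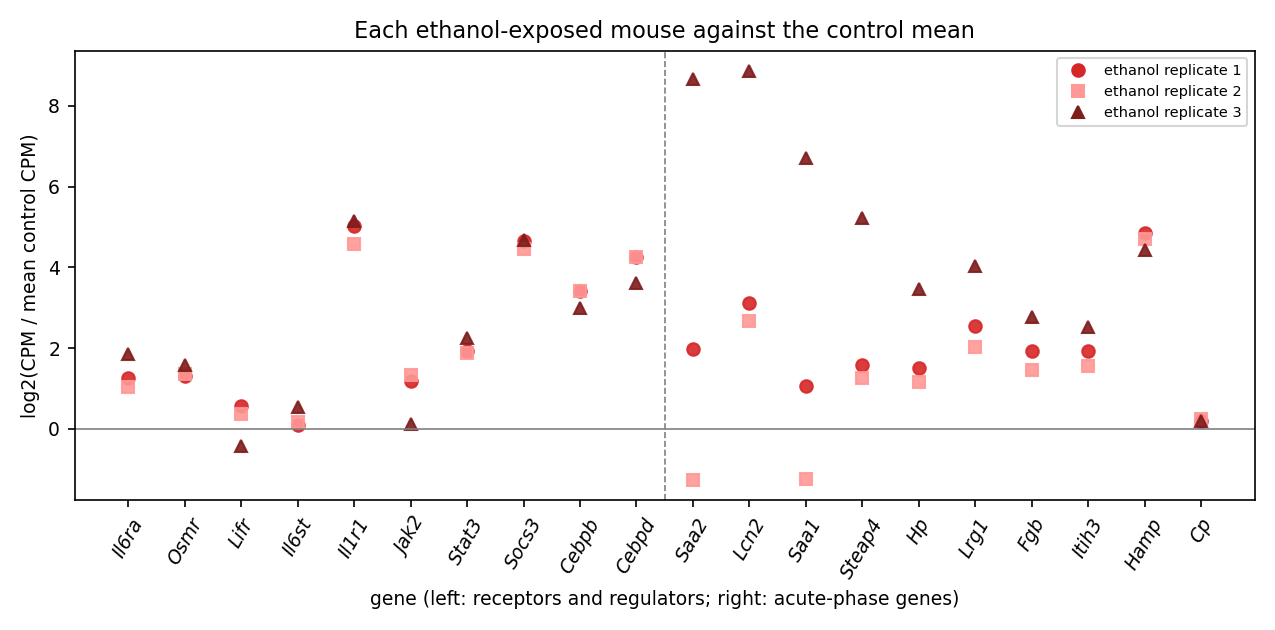
Level of each gene in each ethanol-exposed mouse against the mean of the control mice, as log2 of the ratio of CPM, with the 10 receptor and regulator genes on the left and 10 acute-phase genes, picked after their values were seen, on the right. The 3 mice lie close together for Il1r1, Socs3, Stat3 and Hamp, and ethanol replicate 3 lies far above the others for Saa2, Lcn2, Saa1 and Steap4.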

How the data were processed

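Liver RNA-seq of 3 acute ethanol-exposed and 3 control mice was used, grouped by their labels. The authors deposited a whole-number count of reads per gene, not normalized, and beside it the authors' FPKM value, scaled to transcript length and library size. Aligner, counting software and use of the strand are not given in the sources used here. The submitters' processing notes list GRCm38 and mm10, but the deposited start and end match GENCODE M21 (GRCm38) for 0 of the 10 members and 539 of 27049 genes, with equal lengths for 10 of the 10, so gene coordinates are printed as deposited, with the build uncertain. The table held 1 further column of counts that matches no library and was not used.

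Counts were filtered (filterByExpr), TMM-normalized and compared by edgeR's quasi-likelihood test with no covariate, with Benjamini-Hochberg adjustment over all 16717 tested genes. A gene was called where its adjusted p was under 0.05 with a log2 fold change above 1 or below -1. Standard errors are the log2 fold change over the square root of F. CPM is TMM-normalized. Totals of 60514417 to 74210869 counts make counting error small for the members, and the number of mice limits precision. A bound against 0 counts uses 3 counts per library and covers counting error only. Software was DESeq2 1.42.0, edgeR 4.0.16 and limma 3.58.1 in R 4.3.3. The fit was run on simulated counts with known changes in both directions. These were built without a shift like that in the TMM factors, so they did not test the scaling. No pair of libraries in a group matched within counting error (chi-square over its degrees of freedom 49.6 to 496).

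The members and gene lists were chosen with earlier results of these data known. All 10 members are named, and of each list at most 5 called genes by size of log2 fold change. Partner genes in ratios, further genes of short counts, genes called or lost without 1 library, Il1a, Il1b, Il6, Osm, Saa1 and Saa2 are named beyond this rule, after their values were seen. Alternatives were DESeq2, other scalings and filters, limma on log2(FPKM + 1) and log2(FPKM + 0.1), the adjusted p alone, the replicate number as a block, and each library left out. No test for outlying libraries was made in groups of 3. One gene of the kinase and STAT list is not reported here.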

Additional observations from a re-analysis of the deposited data

How the results depend on the processing

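Over all alternatives, 5 to 8 members were upregulated and 0 downregulated. The count was 5 with library size alone, with a filter at a mean FPKM of at least 5, which tested 7 of the members, and in both limma fits, which tested 9. It was 8 without ethanol replicate 3 and with the adjusted p alone. Leaving out 1 library gave 7 to 8. Il6st changed sign to -0.38 with library size alone and to -0.35 and -0.39 with limma on log2(FPKM + 1) and log2(FPKM + 0.1). Lifr changed sign to -0.44 with library size alone, -0.055 with the FPKM filter, and -0.47 and -0.50 with limma. Relative to the median of all genes with library size alone, Il6st was 0.33 and Lifr 0.27. In limma on log2(FPKM + 1) these were 0.078 and -0.045, on log2(FPKM + 0.1) 0.21 and 0.095, and with the FPKM filter 0.0098 and -0.068. Il6ra fell below the fold threshold with library size alone (0.75) and with limma (0.59 and 0.70), and Osmr with library size alone (0.75). Jak2 was 0.32 with library size alone and 0.18 and 0.21 with limma. The cause of the differences between fits was not tested. Il1r1, Stat3, Socs3, Cebpb and Cebpd were called in every alternative. With the replicate number as a block, 7 members were upregulated, and over all genes 1518 rose and 2000 fell. Same-numbered libraries did not deviate together (r of -0.042, -0.027 and -0.008). This cannot exclude a weak effect of a shared litter or day, and the labels do not say what equal numbers mean. Over all genes, 408 rose and 1714 fell with limma on log2(FPKM + 1), 572 and 3567 with log2(FPKM + 0.1), and 429 and 443 among the 4328 genes of the FPKM filter. Of the list counts, 179 stayed within 1.5 times their value and 61 did not. Acute-phase rises ran from 6 to 16 of 20. Acute-phase falls ran from 0 to 2, with 2 (Apcs and A2m) with library size alone and 1 (Apcs) in each limma fit. Early STAT3 target rises ran from 2 to 6 of 8 (2 with library size alone and with limma, beside 2 falls), and rises among negative regulators from 1 to 8 of 15. Falls ran from 0 to 4 of 8 among the other kinases and STAT genes, with 3 with library size alone and 2 and 4 with limma. Rises in this list ran from 0 to 1, Stat4 with no filter on low counts and Jak1 with the adjusted p alone. Among the other C/EBP genes falls ran from 0 to 2 of 5, with 2 (Cebpe added) with DESeq2, library size alone and both limma fits.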
